A study of Homo sapiens and Mus musculus with 10 samples.

Results

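The proteasome transcripts of HEK293T cells are described here across glucose deprivation, thapsigargin and the loss of UFD1s. Members were all transcripts of the HEK293T count tables whose gene symbol starts with PSMA, PSMB, PSMC, PSMD, PSME, PSMF or PSMG followed by a digit, plus POMP. This gave 49 symbols of 16619, with 48 in the table of the stress set, 44 in the table of the genotype set and 35 counted on the same transcript in both. Of the 49, 45 encode a subunit, an activator, an inhibitor or an assembly factor, and 4 match by name only: the antisense RNAs PSMA3-AS1, PSMD6-AS2 and PSMG3-AS1, and PSMC3IP, a meiotic recombination factor. PSMA8, PSMB11, PSMD1 and PSMD5 were not analysed here.

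RNA depleted of ribosomal RNA was sequenced from 10 libraries, of which the 7 of HEK293T, an established line of human embryonic kidney origin, are used. The stress set held 1 library each of wild-type (WT) cells that were mock-treated, glucose-deprived for 24 h (GD) or given 300 nM thapsigargin for 6 h (TG). Thapsigargin blocks the calcium pump of the endoplasmic reticulum and causes stress in that organelle, and the submitters count GD as an oxidative stress of metabolism. The genotype set paired WT cells with UFD1s-deficient cells, each genotype with 1 mock library and 1 GD library. UFD1 is a cofactor of the p97 ATPase, which hands ubiquitin-tagged proteins to the proteasome. The labels do not say how the deficient line was made, how many clones it represents or which libraries came from separate cultures. All p-values therefore measure only the spread between these libraries, which may be technical.

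The proteasome degrades proteins tagged with ubiquitin. Its barrel-shaped 20S core has outer rings of alpha subunits (PSMA) and inner rings of beta subunits (PSMB), some of which are the proteases. The 19S cap has a base, made of the ATPases PSMC and of scaffold and ubiquitin-binding subunits, which unfolds substrates, and a lid (further PSMD proteins), which removes ubiquitin. Activators (PSME) can replace the cap, PSMF1 inhibits the core, and POMP, PSMG proteins, PSMD9 and PSMD10 guide assembly. When proteasome activity is short, the transcription factor NFE2L1 (NRF1) is known to raise subunit genes together through antioxidant response elements in their promoters.

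Promoters of 39 of the 45 subunit and assembly genes were found in RefSeq (GRCh38.p14), each taken as the 250 bases before the annotated start. The antioxidant response element core TGACNNNGC was searched on both strands, as was CCAAT, the box bound by NF-Y, a factor common in housekeeping promoters. The element core was in 10 of 39 member promoters (25.6%) and in 11.0% of 27305 promoters of all genes. CCAAT was in 17 (43.6%), against 33.0%. These matches are a description of letters, not of bound sites. The 6 promoters below were chosen partly by these motifs and partly by the results of their genes. How many of the 6 hold the element core therefore says nothing about members in general. Matches to TGACNNNGC and CCAAT on either strand are in capitals. The first 3 belong to activators and each holds the element core.
PSME4, chr2:53970994-53971243, minus strand: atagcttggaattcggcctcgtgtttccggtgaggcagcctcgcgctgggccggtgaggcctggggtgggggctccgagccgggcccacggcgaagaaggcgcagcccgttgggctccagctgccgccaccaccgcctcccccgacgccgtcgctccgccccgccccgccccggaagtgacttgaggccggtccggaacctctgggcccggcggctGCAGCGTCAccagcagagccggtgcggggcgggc
PSME1, chr14:24135944-24136193, plus strand: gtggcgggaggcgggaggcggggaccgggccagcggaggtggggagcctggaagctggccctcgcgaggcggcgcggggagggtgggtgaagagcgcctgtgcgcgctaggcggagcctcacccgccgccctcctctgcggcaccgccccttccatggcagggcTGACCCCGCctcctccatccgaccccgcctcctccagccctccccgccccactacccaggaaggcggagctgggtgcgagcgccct
PSME2, chr14:24146611-24146860, minus strand: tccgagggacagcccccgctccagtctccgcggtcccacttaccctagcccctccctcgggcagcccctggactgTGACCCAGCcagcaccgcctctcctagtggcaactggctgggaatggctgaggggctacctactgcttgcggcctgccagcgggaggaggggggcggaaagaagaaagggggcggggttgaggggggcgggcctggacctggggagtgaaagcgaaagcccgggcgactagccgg
The next 2 belong to a core and a lid gene whose GD response differed between sets, and they hold both motifs.
PSMB3, chr17:38752491-38752740, plus strand: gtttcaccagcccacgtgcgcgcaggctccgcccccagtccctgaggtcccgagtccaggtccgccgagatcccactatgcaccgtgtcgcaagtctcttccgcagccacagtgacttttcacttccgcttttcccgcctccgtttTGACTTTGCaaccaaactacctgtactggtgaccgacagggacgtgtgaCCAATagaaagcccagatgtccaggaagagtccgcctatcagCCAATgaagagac
PSMD3, chr17:39980557-39980806, plus strand: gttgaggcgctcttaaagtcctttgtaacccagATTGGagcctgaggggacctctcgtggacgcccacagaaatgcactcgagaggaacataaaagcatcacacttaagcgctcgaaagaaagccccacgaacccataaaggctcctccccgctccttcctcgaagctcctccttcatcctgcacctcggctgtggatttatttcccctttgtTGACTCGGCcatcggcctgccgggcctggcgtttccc
The last belongs to the core gene PSMA3, with CCAAT in both orientations near the start and no element core.
PSMA3, chr14:58244593-58244842, plus strand: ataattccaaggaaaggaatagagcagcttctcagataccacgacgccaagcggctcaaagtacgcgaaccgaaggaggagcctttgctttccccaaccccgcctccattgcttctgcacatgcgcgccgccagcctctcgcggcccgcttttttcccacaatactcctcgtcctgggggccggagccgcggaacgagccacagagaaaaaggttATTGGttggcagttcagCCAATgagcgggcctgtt
Of the 6 members called lower in GD, described further on, 0 held the element core, and PSMA2, PSMA3 and PSMC3 held CCAAT. Further motifs of stress factors were counted in the same way on both strands. CCACG, part of the unfolded protein response element, was in 16 member promoters (41.0%, against 33.3% of all). TGATGNAA, the core of ATF4 composite sites, and GAANNTTC, of heat shock elements, were in 0 of 39, against 3.19% and 5.85% of all promoters.

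Library totals ran from 11461365 to 19024327 reads over the 7 libraries. Each symbol has 1 transcript in a table, so a low count is that of a transcript and need not be that of the gene. For the stress set, 32 of 48 members reached 50 reads in a library and 19 exceeded 1000 reads in every library, and for the genotype set 38 and 20 of 44 did. UFD1, the targeted gene, was counted on NM_001035247.2 in the stress set, with 10, 0 and 0 reads in mock, GD and TG. On NM_005659.6 in the genotype set it had 168 (mock) and 107 (GD) reads in WT cells and 199 and 193 in deficient ones. Whether either transcript covers what was lost is not stated, so UFD1 counts are no check of the genotype labels. Of HEK293T markers, VIM, NEFL and LIN28B were well counted, whereas KRT8, KRT18 and NEFM were far lower. PECAM1, CDH5 and ALB, of endothelium and liver, were below 1 CPM. In the GD test described further on, edgeR called VIM higher (0.38) and NEFL lower (-0.72) among 5 tested HEK293T markers. Of all transcripts 9.75% were called higher and 11.1% lower. The part of VIM and NEFL in the results was not tested.

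Levels of different members were compared as read counts scaled to library size and divided by the length of the counted transcript in kilobases (CPM per kb), with lengths taken from GENCODE. PSMB4, a structural beta subunit, had the highest level, at 279 CPM per kb in the stress mock library and 332 in the WT mock library of the genotype set. PSMB1 had 203 and 233, PSMA7 190 and 210, and PSMA6 192 and 162 CPM per kb. PSMB1, PSMA7 and PSMA6 values overlap between the libraries, so their order is not settled, whereas both PSMB4 values lie above them. The activator PSME4 (PA200, a nuclear activator) had 77.6 and 64.8 CPM per kb. PSME2, a subunit of the interferon-linked activator PA28, had 29.1 and 31.4. Some members of these fixed-ratio complexes were counted far lower, such as the ATPase PSMC5 at 0.351 and 1.98 CPM per kb.

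The immunoproteasome subunits, which replace core proteases after interferon, had few reads. PSMB8 (LMP7) had 4, 1 and 0 reads in mock, GD and TG of the stress set, and PSMB9 (LMP2) had 17, 2 and 17. The PSMB9 reads in GD were 5.76-fold lower than in mock after scaling, with an exact 95% interval of 1.37 to 51.4 for counting error. PSMB10 (MECL-1) had 29, 23 and 51 reads in mock, GD and TG. Its WT libraries in the genotype set had 86 (mock) and 95 (GD) reads and its deficient libraries 47 and 66. It was therefore lower in both deficient libraries than in either WT library of that set.

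Summed over the transcripts counted in both tables, core, base and lid were furthest below mock in the GD library of the stress set. Over 11 core transcripts the summed level was 1487 CPM in mock, 1150 in GD and 1341 in TG. The genotype set gave 1573 and 1443 CPM in WT mock and WT GD, then 1687 and 1515 CPM in the deficient line. The 8 base transcripts summed to 1417, 1042 and 1372 CPM in mock, GD and TG, and to 1487, 1454, 1584 and 1549 in the genotype set in the order just given. The 7 lid transcripts summed to 960, 729 and 1020 CPM in the stress set and to 1114, 1037, 1119 and 1076 in the genotype set. Within the genotype set, GD was thus below mock for core, base and lid in both genotypes, by smaller amounts than in the stress set. PSME2 and PSME4 together, the activators counted on the same transcript, gave 592, 589 and 657 CPM in mock, GD and TG, and 504, 631, 632 and 779 CPM in the genotype set. The 4 chaperones, with POMP as the most abundant, summed to 209, 142 and 171 CPM in mock, GD and TG, and to 195, 142, 183 and 153 CPM in the genotype set. In bulk RNA, fewer cells and less RNA per cell cannot be told apart.

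**Figure D1:**
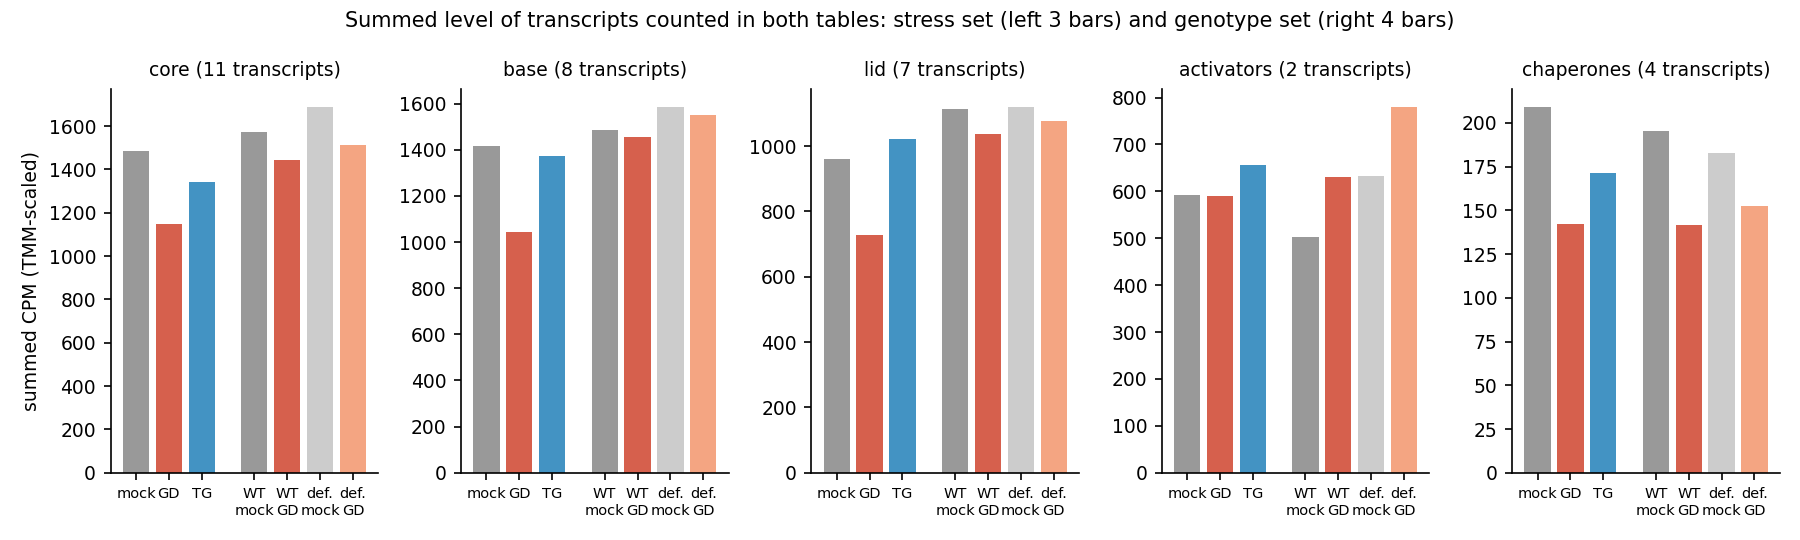
Summed CPM (TMM-scaled, a trimmed-mean scaling of library totals, y axis) of the transcripts counted in both tables, by part of the proteasome, with 1 library per bar and no error bar since a bar is 1 library; def. is the UFD1s-deficient line. The tables hold different transcripts, so bars are to be read within a set: core, base and lid are lowest in GD in the stress set, at 1150, 1042 and 729 CPM, while activators are highest in deficient GD, at 779 CPM.

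The first comparison asked which proteasome transcripts change without glucose. POMP, 3 alpha subunits (PSMA2, PSMA3, PSMA4), the base ATPase PSMC3 and the lid subunit PSMD11 were lower in GD, and no member was higher. These 6 were called by edgeR's quasi-likelihood test at an adjusted p below 0.05, out of 35 tested in 6 libraries with set and genotype as terms. Of all 10368 transcripts tested, 11.1% were called lower (1153) and 9.75% higher (1011), a split that library totals in place of TMM scaling moved to 1526 and 683. DESeq2 called the same members except PSMC3 and also called 0 higher. At an unadjusted p below 0.05 edgeR gave 16 of 35 members and 3659 of all 10368 transcripts. PSMA1 and PSME4, above mock, were among those 16 members. The median log2 difference was -0.19 over the 35 members and -0.02 over all transcripts. In the 3 mock and GD pairs, which share no library, 18 of 35 members were below mock in every pair (28.4% of all transcripts were) and 3 were above it in every pair (26.9%): PSMA1, PSMB10 and PSME4. In the stress set, however, PSME4 was level with mock (log2 ratio 0.0079) and PSMB10 rested on 29 reads in mock and 23 in GD. The calls rest on few libraries. Leaving out the mock or the GD library of deficient cells left 0 members called, where 2.58% and 2.65% of all transcripts were called lower. Leaving out WT mock or WT GD of the genotype set left 2 members, POMP and PSMD11, where 6.25% and 6.11% of all transcripts were called lower.

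POMP, the chaperone that helps build the beta ring, had 3391 reads in mock and 1486 in GD of the stress set, 2034 and 1264 in the WT pair of the genotype set, and 2151 and 1455 in its deficient pair. In CPM, its 3 GD libraries (114 to 125) lay below all 3 mock libraries (159 to 188). POMP fell by 0.50 on the log2 scale (SE 0.0927, n = 3 pairs, edgeR quasi-likelihood adjusted p = 0.00630).

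PSMD11, a lid scaffold, was counted on NM_001270482.1 with 118 and 26 reads in mock and GD of the stress set, 86 and 38 in the WT pair of the genotype set, and 122 and 48 in its deficient pair. GD was the lower library in each pair, and the GD levels (2.12 to 4.12 CPM) did not overlap those of mock (6.53 to 9.10 CPM). The log2 difference was -1.24 (SE 0.270, n = 3 pairs, edgeR adjusted p = 0.0124). With few reads behind each value, this transcript is among the less precise of those called.

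Among alpha subunits, which form the outer rings and the gate of the core, PSMA3 changed most. PSMA3 had 294 and 86 reads in mock and GD of the stress set, 46 and 16 in the WT pair of the genotype set, and 32 and 20 in its deficient pair. The stress set held most of its reads and the GD library was lower in all 3 pairs. PSMA3 fell by 1.05 on the log2 scale (SE 0.286, edgeR adjusted p = 0.0300). The mock and GD levels overlap when sets are mixed, since stress GD (7.02 CPM) exceeded both mock libraries of the genotype set.

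PSMA2 had 3695 and 1788 reads in mock and GD of the stress set, 2637 and 1938 in the WT pair of the genotype set, and 2457 and 1722 in its deficient pair. Its GD levels (146 to 174 CPM) lay below all mock levels (183 to 207 CPM), with a log2 difference of -0.35 in the fit (SE 0.0900, edgeR adjusted p = 0.0228). PSMA4 had 1240 and 627 reads, then 1087 and 700, then 1190 and 836 in the same pairs. Its log2 difference was -0.39 (SE 0.0978, edgeR adjusted p = 0.0207). Both are well counted, unlike PSMA3.

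PSMC3, an ATPase of the base, had 3577 and 1658 reads in mock and GD of the stress set, 3469 and 2479 in the WT pair of the genotype set, and 3852 and 3032 in its deficient pair. Its GD levels were below those of mock within each pair and overlapped mock between sets. The log2 difference was -0.33 (SE 0.0998, edgeR adjusted p = 0.0431), close to the threshold. Just outside it stood the beta subunit PSMB2 at -0.39 (edgeR adjusted p = 0.0530) and PSMA7 at -0.28 (edgeR adjusted p = 0.0595).

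**Figure D2:**
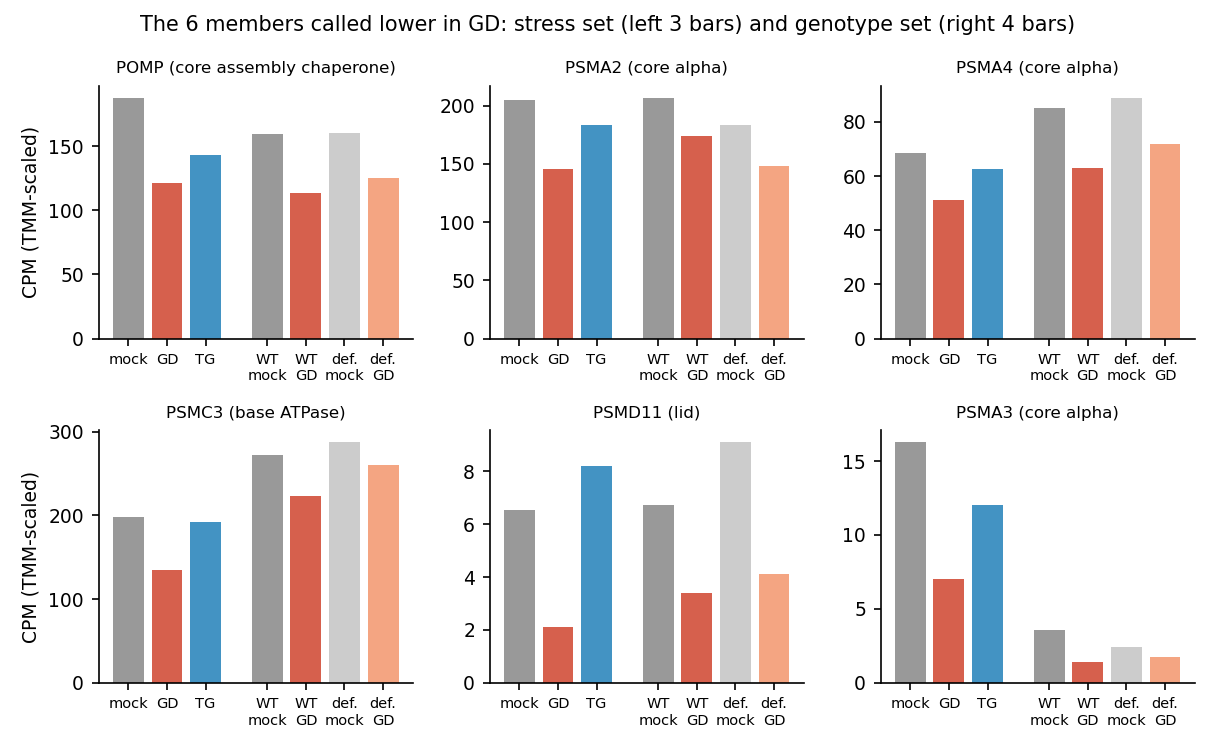
CPM (TMM-scaled, y axis) of the 6 members called lower in GD, with 1 library per bar and no error bar; def. is the UFD1s-deficient line. In all 6 panels each GD bar is lower than the mock bar of its own pair, and PSMA3 runs from 16.3 CPM in stress mock to 1.44 CPM in WT GD of the genotype set.

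By part, 3 of 11 core transcripts, 1 of 8 of the base, 1 of 7 of the lid and 1 of 4 chaperones were called lower. All 7 lid transcripts and all 6 base ATPases had log2 differences below 0, with medians of -0.23 and -0.29, where 51.9% of all transcripts were below 0. Of the core, 9 of 11 were below 0 (median -0.28). The exceptions were PSMB7 at 0.02 and PSMA1, on its transcript NM_148976.2, at 0.82 (edgeR adjusted p = 0.112). PSMA1 had 28 and 61 reads in mock and GD of the stress set, 60 and 62 in the WT pair of the genotype set, and 59 and 80 in its deficient pair. The stress set gave a 3.21-fold higher level in GD (exact 95% interval 2.02 to 5.22), and the genotype set log2 ratios of 0.23 and 0.60.

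Of the base non-ATPase subunits, PSMD2 (a scaffold) stood at -0.21 and PSMD4 (a ubiquitin receptor) at 0.08, neither called. PSMC5 had the lowest fitted value, -1.36, and was not called (edgeR adjusted p = 0.0649), with 10 and 2 reads, 40 and 12, and 44 and 18 in the 3 mock and GD pairs. The activator PSME4 stood at 0.23 (edgeR adjusted p = 0.136) and PSME2 at -0.11, neither past the test. The remaining chaperones counted on the same transcript, PSMG4 (0.37), PSMD9 (-0.10) and PSMD10 (0.42), were not called either. PSMG4 had 22 and 18 reads in mock and GD of the stress set, and PSMD10 34 and 30, so both are imprecise.

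The genotype table alone gave a wider view, since it counts 44 members. Fitted on its 4 libraries, edgeR's quasi-likelihood test called 9 members lower and 2 higher in GD, where 16.7% of all its transcripts were called lower and 16.1% higher. The member median was -0.07 and that of all transcripts -0.01. POMP, PSMA2, PSMA4, PSMC3 and PSMD11 were again lower, and PSMB4, PSMA7, PSMC5 and PSMD12 passed as well. PSMA3, with few reads in this set, did not. The 2 called higher were PSME4 and PSMG1.

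PSMG1, a chaperone that pairs with PSMG2 to build the alpha ring, was counted on NM_203433.2 with 34 (mock) and 91 (GD) reads in WT cells and 38 and 103 in deficient ones. Both GD libraries were high and both mock libraries low. The ratio of GD to mock was 3.07-fold in WT (exact 95% interval 2.05 to 4.70 for counting error) and 3.12-fold in deficient cells (2.13 to 4.66). Fitted in this set, the log2 difference was 1.63 (SE 0.305, edgeR adjusted p = 0.000347). In the stress set another PSMG1 transcript was counted, with 4, 0 and 0 reads, which says nothing about this one.

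PSMD12, a lid subunit, was counted on NM_002816.3 with 505 (mock) and 250 (GD) reads in WT cells and 547 and 231 in deficient ones. Its GD libraries were both near the same low level. The log2 difference in this set was -0.93 (SE 0.136, edgeR adjusted p = 2.708e-05). Of the other chaperones of the alpha ring, PSMG2 (0.50, edgeR adjusted p = 0.0527) and PSMG3 (-0.05) were not called, with 155, 168, 148 and 207 reads and 326, 294, 313 and 246 reads in the same order.

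PSME4 had 9954 and 6786 reads in mock and GD of the stress set, 5869 and 6600 in the WT pair of the genotype set, and 7811 and 8463 in its deficient pair. After scaling, its GD level was above mock in both pairs of the genotype set (593 against 460 CPM in WT, 727 against 583 in deficient cells) and level with mock in the stress set (554 against 551). With the genotype set alone, PSME4 rose by 0.34 on the log2 scale (SE 0.0505, edgeR adjusted p = 2.765e-05). The inhibitor PSMF1 was not called, with 255 (mock) and 224 (GD) reads in WT cells against 219 and 248 in deficient ones.

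The size of the GD response itself differed between sets for 7 of 35 members, all lower in the stress set than in the genotype set. They were the base subunits PSMD2, PSMC1, PSMC2 and PSMC3, the beta subunit PSMB3, the lid subunit PSMD3 and PSME4. Of all transcripts 5.63% were called lower and 4.81% higher for this difference (edgeR quasi-likelihood test of the set by treatment term). In this test the response of the genotype set is taken over its WT and deficient pairs, whereas the stress set holds WT cells only. The median difference was -0.30 over the 35 members and -0.01 over all. It was below 0 for 32 of 35 members and for 50.7% of all transcripts. The stress response is that of 1 mock and 1 GD library, and the 1 residual degree of freedom comes from the genotype set, so these p-values assume that the stress pair varies like the pairs of that set. DESeq2 called 2 of the 7, PSMD2 and PSMB3, and not PSMC1, PSMC2, PSMC3, PSMD3 or PSME4.

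PSMD2 had 8858 and 3903 reads in mock and GD of the stress set, 6685 and 5861 in the WT pair of the genotype set, and 7708 and 6634 in its deficient pair. The stress GD library stood apart at 319 CPM, against 490 to 575 CPM in the other mock and GD libraries. The stress response was lower by 0.64 on the log2 scale (difference -0.64, SE 0.0895, edgeR adjusted p = 6.903e-05).

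PSMB3 had 2074 and 842 reads in mock and GD of the stress set, 1604 and 1342 in the WT pair of the genotype set, and 2017 and 1673 in its deficient pair. Stress GD was again the low library, at 68.7 CPM against 115 to 151 CPM. The difference between sets was -0.69 (SE 0.129, edgeR adjusted p = 0.00108). For PSMD3, with 5578 and 2643 reads in mock and GD of the stress set and between 4590 and 6087 in the genotype set, it was -0.45 (SE 0.0948, edgeR adjusted p = 0.00326, and 0.0594 by DESeq2).

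The nuclear RNA MALAT1 moved with the same contrast, by 0.81 more in the stress set (edgeR adjusted p = 2.132e-11). Its log2 ratio of GD to mock was 1.38 in the stress set, 0.57 in WT and 0.53 in deficient cells of the genotype set. Reads of RNA45SN5, the precursor of ribosomal RNA, made up 7.73% of stress mock, 10.7% of GD and 8.31% of TG. The part of library composition in the difference between sets was not tested. Sets also differ in table, and which of these bears on the members cannot be told apart.

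**Figure D3:**
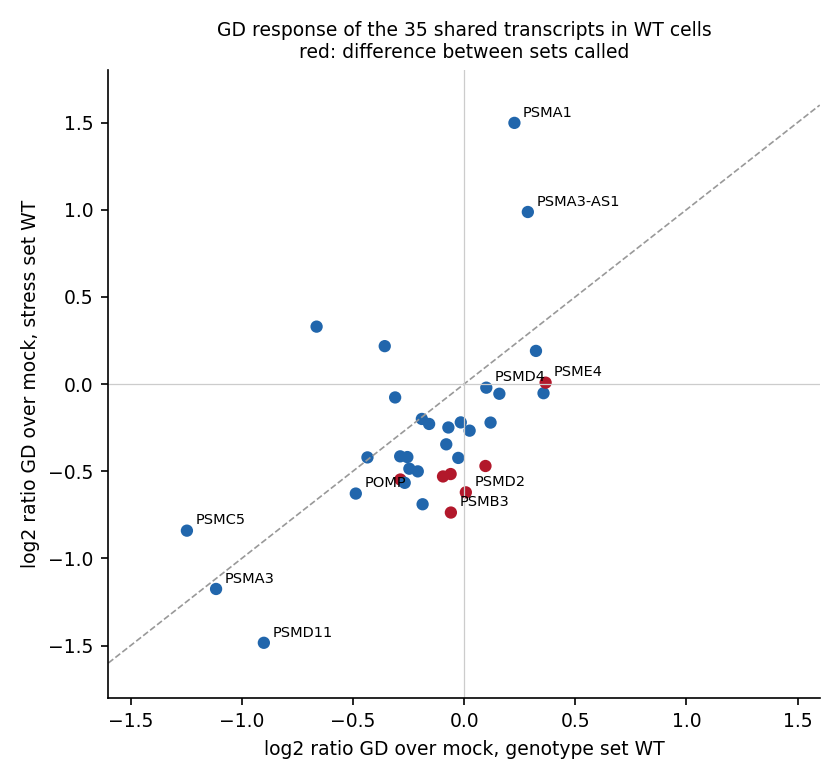
Each point is 1 of the 35 members counted on the same transcript in both tables, with the log2 ratio of GD to mock in WT cells of the genotype set on the x axis and of the stress set on the y axis; the dashed line marks equal ratios. Most points lie below the line, and the 7 red points are members whose GD response differed between sets, with PSMD2 and PSMB3 furthest below it among them. The test behind the red points also used the deficient pair, which is not drawn.

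Within each pair, members with 50 reads or more were also described without a test. In the stress set 28 of 31 were below mock (51.6% of all transcripts were), with a median log2 ratio of -0.42 against -0.02 for all. The class medians were -0.42 for alpha, -0.42 for beta, -0.53 for ATPase and -0.41 for lid subunits. In WT of the genotype set 23 of 38 were below mock (50.1% of all), with a median of -0.07. In deficient cells 26 of 38 were (52.2% of all), with a median of -0.09. By a rule of 2-fold or more, PSMA3 and PSMD11 were lower and PSMA1 higher in the stress set, where 3.56% of all transcripts were lower and 3.67% higher. PSMG1 was higher in both pairs of the genotype set (2.39% of all in WT and 2.14% in deficient cells). Members lower there were 0 in WT (4.42% of all) and 2 in deficient cells (4.17%), PSMD11 and PSMD12. With 1.5-fold in its place, 6 members were lower (11.2% of all) and 2 higher (11.5%) in the stress set. In WT of the genotype set 2 were then lower (12.6%), and in deficient cells 4 were higher (8.4%).

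Thapsigargin left proteasome transcripts close to mock, with core subunits slightly below it and most lid subunits slightly above. This comparison has 1 library per condition and no replicate check, so no p-value is given. Of 30 members with 50 reads or more, 0 passed the 2-fold rule, where 4.79% of all transcripts were higher and 3.33% lower, and by 1.5-fold 1 was higher (12% of all). In all, 19 of 30 were below mock (49.1% of all transcripts), with a median log2 ratio of -0.04 against 0.01 for all.

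All 10 core subunits with enough reads were below mock in TG, between -0.43 (PSMA3) and -0.04 (PSMA6). The median was -0.16 for the 5 alpha and -0.20 for the 5 beta subunits. Of the 7 lid subunits, 5 were above mock, with a median of 0.16 and a range from -0.03 (PSMD6) to 0.45 (PSMD13). The ranges of core and lid met without overlapping, but the nearest members, PSMA6 and PSMD6, both had counting intervals that include no difference. The ATPases of the base had a median of -0.05, between the other parts. PSMA1, a core transcript under the read minimum, stood at 0.34 with 38 reads in TG and 28 in mock.

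The lowest TG ratios were those of PSMA3, POMP and PSMA7. POMP had 2675 reads in TG and 3391 in mock and was 1.31-fold lower after scaling (exact 95% interval 1.24 to 1.38, counting error only). PSMA3 had 224 and 294 reads and was 1.35-fold lower (1.13 to 1.62). PSMA7 had 2883 and 3427 reads and was 1.23-fold lower (1.17 to 1.29). All 3 intervals lie on 1 side of equality, which concerns these libraries and not the treatment in general.

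The highest TG ratios were those of PSMB10, PSMD9 and PSMD13. PSMB10 had 51 reads in TG and 29 in mock and was 1.70-fold higher (exact 95% interval 1.06 to 2.79). PSMD9, a chaperone of the base, had 474 and 327 reads and was 1.40-fold higher (1.22 to 1.62). PSMD13, a lid subunit, had 435 and 307 reads and was 1.37-fold higher (1.18 to 1.59). Among activators, PSME2 had 945 and 738 reads and was 1.24-fold higher (1.13 to 1.37), and PSME4 stood at a log2 ratio of 0.14.

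TG and GD share the mock library of the stress set, so their ratios to mock are not independent. Set directly against GD, the TG library was higher for 29 of 32 members, with 3 of 32 below 0 (46.2% of all transcripts) and a median log2 ratio of 0.40 against 0.04. The lid median was 0.51, the ATPase median 0.50, the alpha median 0.30 and the beta median 0.23. PSMD11, at 153 reads in TG and 26 in GD, was the member past 2-fold in this direction (4.56% of all transcripts were), and PSMA1 and PSMA3-AS1 were past it in the other (3.94%). By 1.5-fold 4 members were higher in TG (13.5% of all).

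Scaling matters for the small TG values. With library totals alone in place of TMM, the median of all transcripts shifts by -0.12 on the log2 scale for TG and by -0.15 for GD in the stress set. The lid median in TG was then 0.04, still with 2 of 7 below 0. Medians near 0 changed sign. In TG they went from 0.01 to -0.10 for base non-ATPase subunits and from 0.05 to -0.07 for chaperones. In WT GD of the genotype set the base went from 0.01 to -0.08 and its non-ATPase subunits from 0.05 to -0.03. Chaperones there went from 0.05 to -0.04 and the inhibitor PSMF1 from 0.01 to -0.07. In the stress set, all core subunits with enough reads were below mock in TG and GD under both scalings, apart from PSMA1 in GD.

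**Figure D4:**
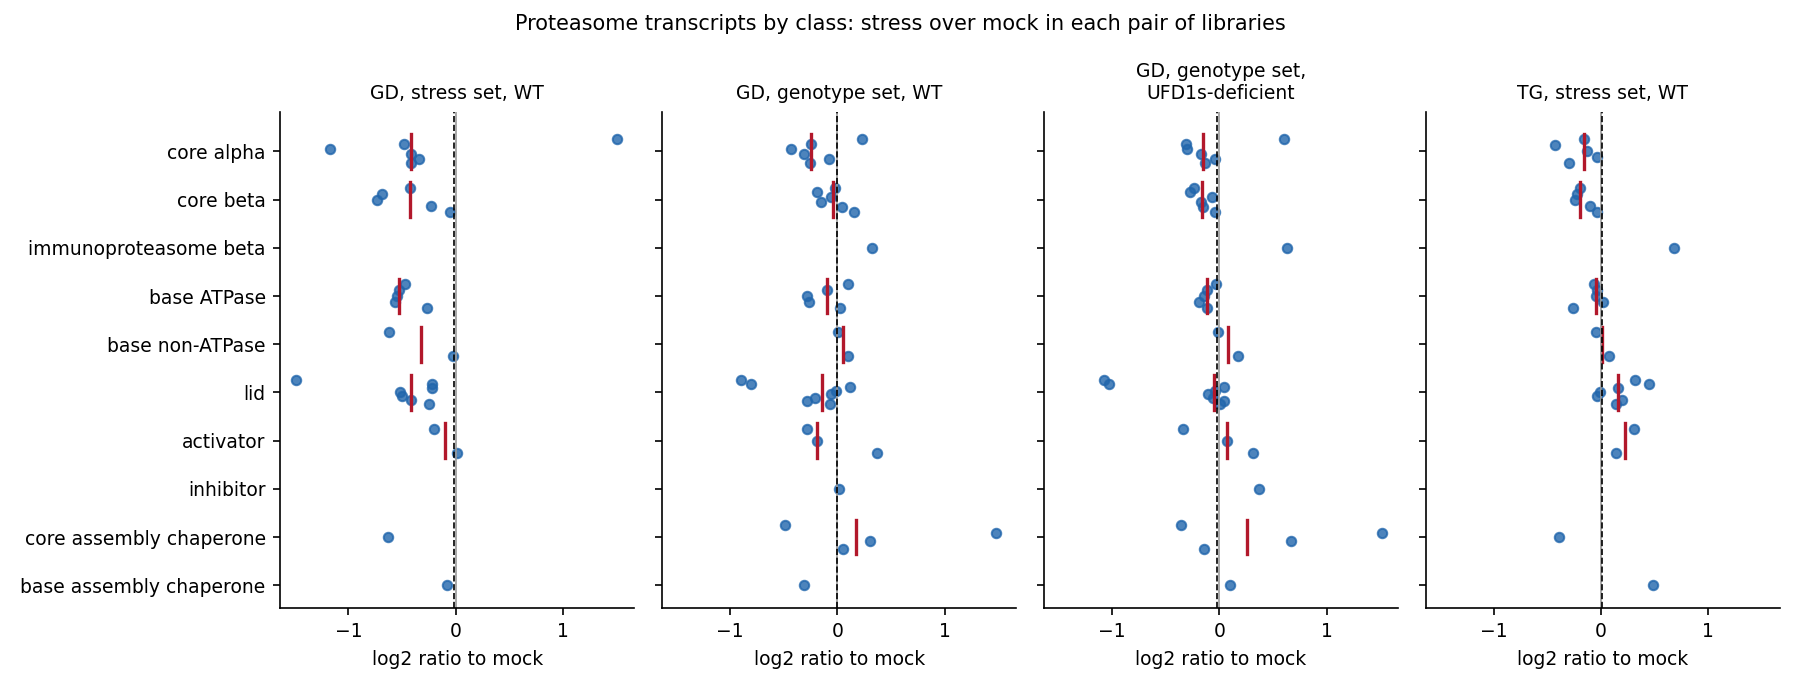
Log2 ratio of stress to mock (x axis) for each member reaching 50 reads in 1 of the libraries compared, by class (rows), in 4 pairs of libraries; red bars are class medians and the dashed line is the median of all transcripts. In the stress set core, base and lid medians lie between -0.32 and -0.53 in GD, while in TG the core medians are -0.16 and -0.20 and the lid median is 0.16.

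The last comparison asked how the deficient line differs from WT. No member passed edgeR's quasi-likelihood test in the 6 libraries, where 0.328% of all transcripts were called higher and 0.781% lower. At an unadjusted p below 0.05 that test gave 3 of 35 members and 1470 of all 10368 transcripts, and DESeq2 called 0 members. The member median was 0.09 on the log2 scale and that of all transcripts 0.01. The extremes were PSMB10 at -0.75, PSMD7 at -0.45 and PSMD10 at -0.41 below WT, and PSMD11 at 0.36, PSME4 at 0.32 and PSME2 at 0.30 above it. Fitted on the genotype set, the same test called PSME4 and PSMB3 higher and PSMD7 and PSMA2 lower, where 5.89% of its transcripts were called higher and 7.55% lower. Leaving out the stress GD library from the 6 gave 7 called higher and 2 lower, where 8.75% of all transcripts were called higher and 9.94% lower.

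By the 2-fold rule, 0 of 37 members with enough reads differed between genotypes in mock (1.49% of all transcripts were higher and 1.24% lower) and 0 of 37 in GD (1.35% and 1.38%). By 1.5-fold 3 were lower in deficient mock (6.13% of all). Of the 37, 12 were below WT in mock (48% of all) and 12 in GD (50.2%), with medians of 0.08 in both.

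The 3 activators counted in the genotype set were above WT in both mock and GD. The fourth, PSME3 (PA28 gamma), was counted in the stress set with 4, 1 and 8 reads in mock, GD and TG. PSME1 had 235 reads in WT and 338 in deficient mock cells, and 168 and 231 after GD. PSME2 had 562, 662, 429 and 606 reads and PSME4 had 5869, 7811, 6600 and 8463 in that order. In CPM the deficient library exceeded the WT library of the same treatment for each of them, by log2 ratios of 0.45 and 0.39 for PSME1, 0.17 and 0.43 for PSME2, and 0.34 and 0.29 for PSME4. For PSME4 the test in this set gave 0.32 (SE 0.0505, edgeR adjusted p = 0.000207). PSME1 and PSME2, the partners of PA28, did not pass (edgeR adjusted p = 0.0935 and 0.0983).

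PSMD7, a lid subunit that pairs with the deubiquitinase PSMD14, had 2042 reads in WT and 1394 in deficient mock cells, and 1458 and 1251 after GD. Both deficient libraries (104 and 108 CPM) were below both WT libraries (160 and 131 CPM). By the fit on this set PSMD7 fell by 0.46 on the log2 scale (SE 0.0825, edgeR adjusted p = 0.000748). PSMD14 itself differed from WT by 0.09 in mock and 0.07 in GD.

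PSMA2 was lower in deficient cells by 0.20 in that fit (log2 difference -0.20, SE 0.0645, edgeR adjusted p = 0.0428) and PSMB3 higher by 0.26 (SE 0.0709, edgeR adjusted p = 0.0189). PSMB10 was below WT by log2 ratios of -0.87 in mock and -0.55 in GD. PSMD9, with 398 and 276 reads in WT and deficient mock, stood at -0.59 in mock and -0.17 in GD. PSMD10, the oncoprotein gankyrin, was at -1.43 in mock and 0.70 in GD, on 34 and 10 reads in mock and 17 and 32 in GD. The log2 ratios deposited by the authors put PSMD10 at -1.835 in mock and 0.847 in GD, again from 1 library per genotype.

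**Figure D5:**
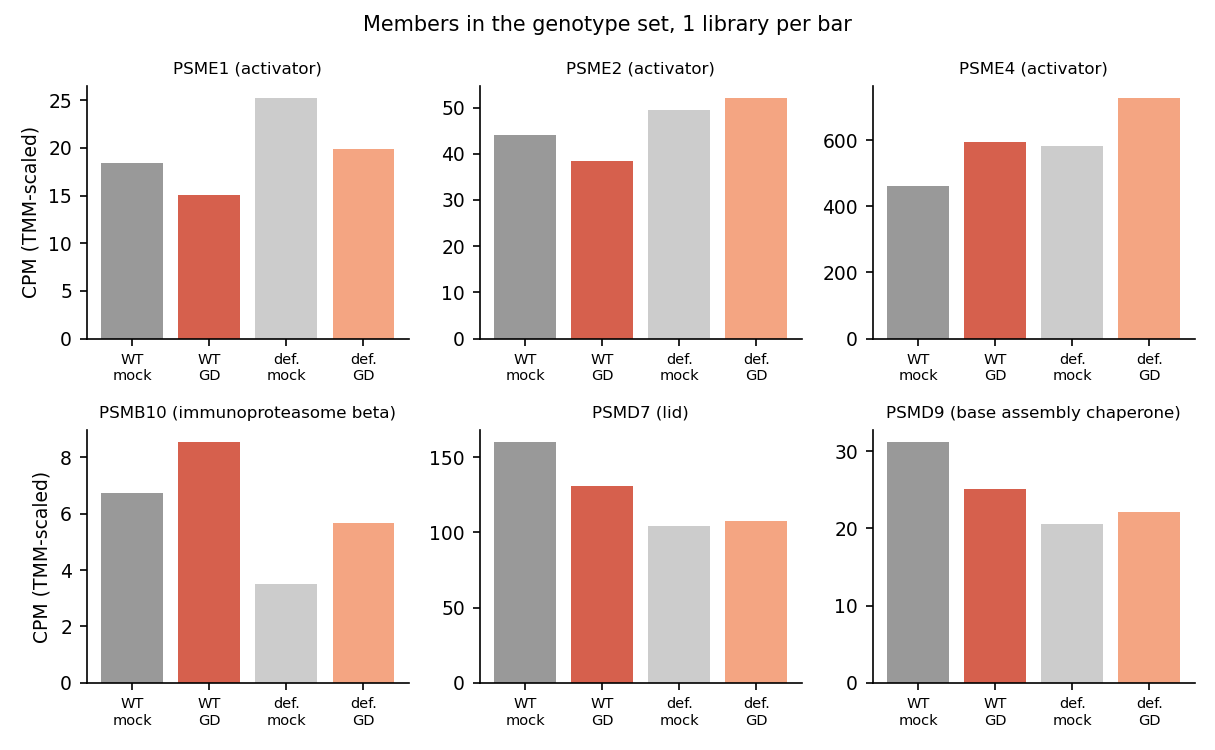
CPM (TMM-scaled, y axis) of 6 members in the 4 libraries of the genotype set, with 1 library per bar and no error bar; def. is the UFD1s-deficient line. The activators are higher in the deficient bar of each treatment, reaching 727 CPM for PSME4, and PSMB10, PSMD7 and PSMD9 are lower in it.

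Whether the GD response differs between genotypes was tested with a genotype by treatment term. No member and 0 of 10368 transcripts were called by edgeR's quasi-likelihood test or by DESeq2. At an unadjusted p below 0.05 edgeR gave 123 transcripts and DESeq2 22, with 0 members in either. This fit has 1 residual degree of freedom, and a lack of calls in it does not show that the genotypes respond alike.

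Antisense transcripts were compared with their sense partners, with the limit that the use of strand in counting is not given, so reads of overlapping partners cannot be told apart. PSMA3-AS1 had 35, 51 and 31 reads in mock, GD and TG of the stress set, where PSMA3 had 294, 86 and 224. In GD of that set PSMA3-AS1 was 2.15-fold higher (exact 95% interval 1.37 to 3.40) and PSMA3 2.32-fold lower (1.82 to 2.98). For PSMA3-AS1 the genotype set held 31 (mock) and 34 (GD) reads in WT cells, and 48 and 25 in deficient ones. Over the 3 pairs PSMA3-AS1 was not called (0.24, edgeR adjusted p = 0.715). PSMD6-AS2 (222, 145 and 190 reads in the stress set) and its partner PSMD6 (2841, 1360 and 2866 reads) had log2 ratios of -0.05 and -0.50 in GD of that set. PSMG3-AS1 had 6, 2 and 4 reads in the stress set, and PSMG3 17, 0 and 14. PSMC3IP, which is no proteasome gene, had 0, 2 and 0 reads there.

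Other genes of the pathway were given by lists in the same GD test, and the lists were chosen with earlier results of these data known. Of 8 tested regulators of proteasome genes, 4 were called higher and 0 lower, with a median log2 difference of 0.40. Of all transcripts 9.75% were called higher and 11.1% lower, with a median of -0.02. NFE2L1 had 4793 and 4605 reads in mock and GD of the stress set, 4732 and 5184 in the WT pair of the genotype set, and 4994 and 5155 in its deficient pair. It rose by 0.35 on the log2 scale (SE 0.0874, edgeR adjusted p = 0.0203), and its log2 ratio of TG to mock was 0.59. Its small Maf partners MAFG (1.73) and MAFK (0.45) and the heat shock factor HSF1 (0.49) were the other called members. MAFG had 6 and 18 reads in mock and GD of the stress set. Its genotype set pairs had 17 and 40 reads (WT) and 17 and 51 (deficient), so its value is imprecise. NFE2L2 (NRF2, of the oxidative stress response) stood at 1.25 (edgeR adjusted p = 0.0514). DDI2, the protease that activates NFE2L1, stood at -0.31 (edgeR adjusted p = 0.0685).

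For the lists that follow, the shares over all transcripts are again 9.75% called higher and 11.1% lower. With 20.9% of all transcripts called in either direction, 1 call among 5 or 7 genes is near that share. Of 5 tested proteasome partners 1 was called. ECPAS (Ecm29), which binds the 26S particle, had 10817 and 11433 reads in mock and GD of the stress set, 6399 and 8992 in the WT pair of the genotype set, and 7658 and 9836 in its deficient pair. It rose by 0.63 (SE 0.0840, edgeR adjusted p = 0.00156). The deubiquitinase USP14 stood at -0.41 (edgeR adjusted p = 0.0739). Of 5 shuttle factors and p97 partners, ZFAND2A (AIRAP, a stress-induced proteasome adaptor) was higher by 1.15 (edgeR adjusted p = 0.0161) and VCP, the p97 ATPase itself, was lower by 0.33 (log2 difference -0.33, edgeR adjusted p = 0.0262). The log2 ratio of ZFAND2A was 2.04 in the stress set, and 0.59 (WT) and 0.74 (deficient) in the genotype set. That difference between sets was called (1.38, edgeR adjusted p = 0.00378). Of 7 genes of antigen processing, NLRC5, an activator of MHC class I genes, was lower at -0.97 (edgeR adjusted p = 0.0257) and 0 were higher.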

How the data were processed

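RNA of 7 HEK293T libraries was analysed. Per the labels, total RNA from TRIzol lysates went into the TruSeq Ribo Profile kit. Per the submitters' processing notes, cutadapt, FastQC, Bowtie2, bedtools and the build hg19 were used. Neither counting rule, annotation nor strand setting is given in the sources used here. The authors deposited raw read counts per RefSeq transcript. Log2 ratios that the authors deposited beside the genotype counts were used only where named, and the p-values beside them are not given.

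Members and lists were chosen with earlier results of these data known. The result of 1 list of pathway genes is not reported here. Transcripts in both tables (10368) were tested with edgeR 4.0.16 (R 4.3.3, quasi-likelihood, TMM, Benjamini-Hochberg over all, threshold 0.05) in a model of set, genotype and treatment (2 residual degrees of freedom). The default filter removed 0. Interaction terms leave 1, as does the fit of the genotype set alone. In the main model the spread is thus how far the 3 mock and GD pairs differ. Within each table, pairs of single libraries were described by log2 ratios of CPM after TMM scaling (prior count 5) and a rule of 2-fold with 50 or more reads. Intervals are exact conditional 95% intervals and cover counting error only. Alternatives included DESeq2 1.42.0. Calculations were checked on simulated counts.

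Named with values were members called, the 3 highest and lowest by TG and genotype, immunoproteasome subunits, activators, inhibitor, chaperones and antisense pairs. Other members, among them PSMC5, PSMA1, PSMB2 and those of the difference between sets, were named after their values were seen. Promoters are RefSeq sequence on GRCh38.p14, and lengths are those of GENCODE transcripts matched by accession without version, neither being the authors' annotation.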

Additional observations from a re-analysis of the deposited data

Results flagged for a closer look

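The GD response of 7 members differed between the stress set and the genotype set by edgeR's quasi-likelihood test of the difference, and each was lower in the stress set. On the log2 scale the difference (stress minus genotype) was -0.694 for PSMB3, -0.636 for PSMD2, -0.519 for PSMC1, -0.45 for PSMD3, -0.443 for PSMC2, and -0.352 for both PSMC3 and PSME4. The same term called 584 of 10368 transcripts lower (5.63%). It sets the stress pair of WT cells against the WT and deficient pairs of the genotype set together. The GD libraries of both sets carry the same label for treatment and time, and DESeq2 called 2 of the 7, PSMD2 and PSMB3.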

How the results depend on the processing

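The count of 6 members lower in GD ranged from 0 to 9 when each library was left out in turn. It was 2 without WT mock or WT GD of the genotype set and 0 without either deficient library. The 4 WT libraries gave 0, as did a model of treatment only (0). Leaving out libraries removes residual degrees of freedom, and the cause was not tested further. The count higher in GD (0) was 2 in the genotype set alone and 0 to 1 with a library left out. For genotype, members called lower (0) were 2 in the genotype set alone and 0 to 2 with a library left out, and members called higher (0) were 2 and 0 to 7, the 7 being without the stress GD library. Members differing between sets (7) were 2 by DESeq2 and 11 with library totals. With 1.5-fold in place of 2-fold, members lower in GD were 6 in the stress set and 2 in WT of the genotype set, and members higher were 2 in the stress set and 4 in deficient cells. TG then had 1 higher than mock (PSMB10) and 4 higher than GD, and deficient mock had 3 lower than WT. Over all transcripts, 2164 GD calls became 3928 in the genotype set, 490 with 4 WT libraries, 23 with treatment only and 494 to 4039 with a library left out. The 115 genotype calls became 1609, 220 by DESeq2 and 5 to 1938, and the 1083 between sets 279 by DESeq2. Of the 6 members lower in GD, POMP and PSMD11 kept their call in 10 of 14 alternatives, PSMA2 and PSMA4 in 8 of 14, PSMC3 in 6 of 14 and PSMA3 in 5 of 13, and none reversed. These alternatives are not independent, so the tallies are no measure of robustness. The fit without a filter repeats the main one, since the default filter removed 0 transcripts. Fits without a deficient library and with the 4 WT libraries gave POMP the same value (-0.57). Those without a stress library and on the genotype set alone also matched (-0.42). The log2 difference of POMP ranged from -0.58 to -0.42 (adjusted p 4.906e-08 to 0.278). The model gives each mock and GD pair its own level, and the labels give no replicate numbers for a further block. Interaction fits without a library have no residual degrees of freedom and were not run. Depth limits members under 50 reads.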
